A study of Mus musculus with 4 samples.

Results

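Interferon-stimulated genes are the antiviral and antigen-handling genes that cells switch on when interferon binds its receptor, and 47 of the 49 genes listed for this group were found among the 13085 genes measured in 4 stable lines of 3T3-L1, a mouse preadipocyte line that turns into fat-storing cells under hormones. Oas3 and Rnf213 were not among the rows and were not analysed here. The genes were listed by name with their low level in the CACUL1 knockdown line already known, and their classes were chosen by the measured FPKM of the knockdown line and its control. All 4 lines were taken on differentiation day 8. Adipogenesis had been started with rosiglitazone, a PPARγ agonist, at 5 μM, the phosphodiesterase inhibitor IBMX at 0.5 mM, the glucocorticoid dexamethasone at 1 μg/ml and insulin at 5 μg/ml. FLAG cells carried the empty FLAG vector and FLAG-CACUL1 cells overexpressed CACUL1 from it, both under G418 selection. The sh-Luc cells carried a hairpin against luciferase and sh-CACUL1 cells a hairpin against CACUL1, both under hygromycin B. Whether a line was 1 clone or a pool of resistant colonies is not given in the sources used here. Each line was sequenced once, so no difference between lines has a replicate check and no test was run.

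Type I interferon binds a receptor made of the IFNAR1 and IFNAR2 chains, which are attached to the kinases TYK2 and JAK1. The kinases phosphorylate STAT proteins, among them STAT2, which joins IRF9 in the ISGF3 complex. This complex binds the interferon-stimulated response element (ISRE) in the promoters of its target genes. Interferon gamma acts through its own receptor on GAS elements. Many cells keep a low tonic level of these genes without infection, and several of the products, such as IRF7, STAT2, IRF9 and the RNA sensors, are themselves parts of the pathway. Interferon gamma is known to inhibit the differentiation of fat cells in culture.

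Values are FPKM, fragments scaled by transcript length and by library size, as deposited. Where a gene is given with values in the hairpin lines and in the FLAG lines, the control stands first and the line with altered CACUL1 follows. A change is the difference in log2(FPKM + 1) between 2 lines, a scale on which changes at low FPKM come out smaller than the plain ratio. A gene counts as changed when it differs at least 2-fold on this scale. Cacul1 had 10.2 FPKM in sh-Luc against 5.39 in sh-CACUL1 and 9.61 in FLAG against 11.8 in FLAG-CACUL1. Low FPKM values fell near whole multiples of the value of 1 fragment, which gives estimated depths of 24000000 fragments for sh-Luc, 15000000 for sh-CACUL1, 14500000 for FLAG and 14300000 for FLAG-CACUL1. Over all genes the median change was -0.30 in sh-CACUL1 against sh-Luc and 0.09 in FLAG-CACUL1 against FLAG, and the former moved to -0.01 after quantile normalization. RNA came from whole cultures, so fewer cells of one kind and less RNA per cell cannot be told apart.

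The members formed 3 classes. A member is called silenced when it was at least 2-fold lower in sh-CACUL1 than in sh-Luc and stayed under 1 FPKM in sh-CACUL1, lowered when it was at least 2-fold lower but kept 1 FPKM or more, and kept otherwise. By this rule 16 members were silenced, 13 were lowered and 18 were kept. The promoters of some members that hold ISRE matches are shown here, and such matches occurred in all 3 classes. Members without a match are not shown. Each stretch is the 140 bases before the transcription start in RefSeq on GRCm38.p6, written 5′ to 3′ on the strand of the gene, and capitals mark matches to the ISRE core, which was searched on both strands as GAAA, NN and GAAA in 1 run, where N is any base. Matches that overlap are run together.
Isg15 (chr4:156200819-156200958, minus strand, lowered): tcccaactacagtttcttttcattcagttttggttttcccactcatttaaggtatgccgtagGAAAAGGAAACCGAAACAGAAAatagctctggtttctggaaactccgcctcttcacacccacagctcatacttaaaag
Ifit1 (chr19:34640749-34640888, plus strand, silenced): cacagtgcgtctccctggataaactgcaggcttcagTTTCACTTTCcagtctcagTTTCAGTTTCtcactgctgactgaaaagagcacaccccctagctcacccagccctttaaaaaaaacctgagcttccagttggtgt
Oas1a (chr5:120907526-120907665, minus strand, silenced): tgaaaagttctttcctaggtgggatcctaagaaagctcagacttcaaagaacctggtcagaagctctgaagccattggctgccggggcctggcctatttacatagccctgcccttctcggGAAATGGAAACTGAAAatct
Igtp (chr11:58199416-58199555, plus strand, silenced): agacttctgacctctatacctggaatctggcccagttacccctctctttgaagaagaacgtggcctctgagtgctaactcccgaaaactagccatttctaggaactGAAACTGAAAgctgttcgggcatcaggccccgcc
Bst2 (chr8:71537473-71537612, minus strand, lowered): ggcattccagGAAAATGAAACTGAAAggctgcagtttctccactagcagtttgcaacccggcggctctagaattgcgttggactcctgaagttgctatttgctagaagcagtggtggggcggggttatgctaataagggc
Irgm1 (chr11:48871421-48871560, minus strand, lowered): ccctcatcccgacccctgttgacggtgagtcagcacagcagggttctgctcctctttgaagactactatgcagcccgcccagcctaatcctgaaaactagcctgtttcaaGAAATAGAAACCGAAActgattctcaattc
Ifitm2 (chr7:140955962-140956101, minus strand, kept): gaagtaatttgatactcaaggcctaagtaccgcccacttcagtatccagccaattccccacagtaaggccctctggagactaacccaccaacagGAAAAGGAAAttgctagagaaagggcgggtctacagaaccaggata
Gbp2 (chr3:142620523-142620662, plus strand, kept): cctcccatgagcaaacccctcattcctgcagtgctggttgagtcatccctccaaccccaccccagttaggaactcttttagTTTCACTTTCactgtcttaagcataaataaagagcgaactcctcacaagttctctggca

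In Isg15 the 3 overlapping matches begin at position -78, -72 and -66 from the start, so that the repeat of GAAA runs without a break. Ifit1 has its 2 matches on the other strand, where GAAA reads TTTC, at -104 and -85. Oas1a has 2 overlapping matches close to the start, at -20 and -14, and Bst2 has 2 further away, at -130 and -124. The stretches of Ifitm2 and Gbp2, both kept in sh-CACUL1, hold 1 match each, at -46 and -59. A match of these letters was thus not limited to genes that were low in sh-CACUL1.

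A RefSeq promoter window of 300 bases, from 250 before to 50 after the start, was matched by symbol for 40 of the 47 members, and Dhx58, Usp18, Oas2, Mx2, Parp9, Parp14 and Tor3a had no entry. The ISRE core was found in 20 of the 40 (50.0%), counting a gene once if any of its windows held a match. Among all 10202 measured genes with a window the share was 3.72%, and among all 32851 windows it was 3.44%. Of the silenced members 7 of 13 held a match (53.8%), of the lowered members 8 of 11 (72.7%) and of the kept members 5 of 16 (31.2%). The GAS core TTCNNNGAA was found in 11 of the 40 members (27.5%), against 8.35% of the measured genes. GAS matches were held by 3 silenced, 4 lowered and 4 kept members, among the last Irf1 and Isg20, which had no ISRE match. In Bst2 and Ifitm3 an ISRE and a GAS match overlap. These are matches of letters in a short window and not sites shown to be bound.

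Over the 4 lines the members were highest in FLAG-CACUL1 and lowest in sh-CACUL1. Their median level was 9.91 FPKM in sh-Luc against 1.89 in sh-CACUL1 and 14 in FLAG against 17.9 in FLAG-CACUL1. Of the 47 members 34 had their highest value in FLAG-CACUL1 and 11 in FLAG, and 40 had their lowest value in sh-CACUL1. The order FLAG-CACUL1, FLAG, sh-Luc, sh-CACUL1 was the most frequent and held for 24 members. Highest and lowest lines were not counted over all genes, of which 8987 of 13085 were lower in sh-CACUL1 than in sh-Luc by any amount. In sh-CACUL1 19 members were under 1 FPKM, whereas in FLAG and in sh-Luc 1 member was and in FLAG-CACUL1 none. Of all genes 20.8% were under 1 FPKM in sh-CACUL1, 19.9% in FLAG, 18.5% in sh-Luc and 18.7% in FLAG-CACUL1. The median of all genes was 5.68 FPKM in sh-CACUL1 and 8.28 in sh-Luc.

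**Figure D1:**
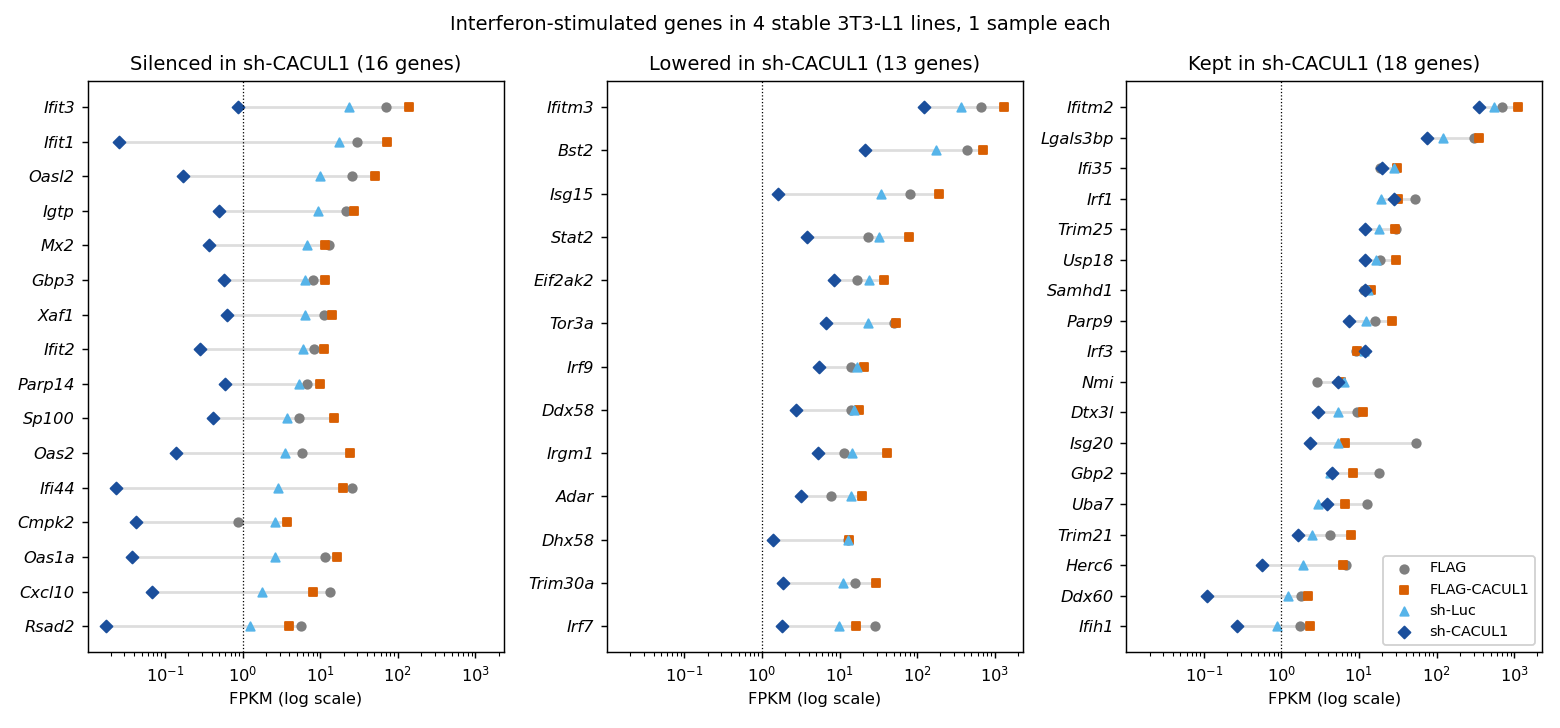
FPKM on a log axis for all 47 interferon-stimulated genes, with 1 point per line and the genes divided by class and sorted by their sh-Luc level. The dotted line marks 1 FPKM. The dark blue diamonds of sh-CACUL1 lie to the left of the other lines in the 16 silenced and 13 lowered genes and mix with them for several of the 18 kept genes.

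In sh-CACUL1 against sh-Luc 29 of 47 members (61.7%) were at least 2-fold lower and none was 2-fold higher, while 16.4% of all genes were lower and 4.94% were higher. The classes were cut on this comparison, so the counts are a description of how the members were divided. Silenced genes made up 34% of the members and 2.54% of all genes. The median change of the members was -1.61, with a range from -4.17 for Ifit1 to 0.52 for Irf1. Scaling shifts all genes of the comparison. After quantile normalization 8.28% of all genes were lower and 9.0% higher, and 28 members were lower and none higher. Median-of-ratios scaling left 27 members lower and none higher. Members close to the limit were Rsad2 at -1.15 inside it, and Ddx60 at -0.99, Isg20 at -0.93 and Herc6 at -0.89 outside it.

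The transcription factors of the pathway differed among themselves. Stat2, the STAT of the ISGF3 complex that serves type I interferon, had 31.8 FPKM in sh-Luc against 3.83 in sh-CACUL1 and 23.3 in FLAG against 77.7 in FLAG-CACUL1, a change of -2.77 in sh-CACUL1 and of 1.70 in FLAG-CACUL1. Irf9, the DNA-binding partner in that complex, had 16.6 and 5.48 FPKM in the hairpin lines and 14.1 and 20.6 in the FLAG lines, so that sh-CACUL1 stood apart from the rest. Irf7, which amplifies interferon production, had 9.91 FPKM in sh-Luc against 1.81 in sh-CACUL1 and 28.5 in FLAG against 16.4 in FLAG-CACUL1. Its change was -1.96 in sh-CACUL1, but it was lower in FLAG-CACUL1 than in FLAG, by -0.76. Irf3, the factor that is present before infection and is switched on by phosphorylation, was nearly level, with 11.6 and 11.8 FPKM in the hairpin lines and 9.25 and 9.48 in the FLAG lines. Irf1, a factor induced strongly by interferon gamma and by inflammatory signals, had 19.4 FPKM in sh-Luc against 28.2 in sh-CACUL1 and 53.5 in FLAG against 31.6 in FLAG-CACUL1. It was the member with the largest positive change in sh-CACUL1, 0.52, which is under 2-fold. The exons of Irf9 overlap those of Rnf31 on the same strand over 123 bases, and Irf3 and Irf7 overlap Bcl2l12 and Phrf1 on the opposite strand, so a few reads may be shared.

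Upstream of these factors, 10 of 11 listed receptor chains, kinases and STATs were measured. Ifnar1 had 13.1 FPKM in sh-Luc against 13.6 in sh-CACUL1 and 16.6 in FLAG against 9.51 in FLAG-CACUL1, and Ifnar2 had 30.9 and 19.7 FPKM in the hairpin lines and 76.6 and 39.2 in the FLAG lines. Neither receptor chain reached 2-fold in sh-CACUL1 or in FLAG-CACUL1 against its own control. Jak1, the kinase bound to IFNAR2, had 35.6 and 12.1 FPKM in the hairpin lines and 89.0 and 71.5 in the FLAG lines, a change of -1.49 in sh-CACUL1. Tyk2 changed by -0.66 there. Ifngr2, a chain of the interferon gamma receptor, changed by -1.45 and Ifngr1 by 0.39. In all, 2 of the 10 genes (20%) were 2-fold lower in sh-CACUL1 and none higher. This is near the share of all genes, of which 16.4% were lower and 4.94% higher. Jak2 was lower in FLAG-CACUL1 than in FLAG, by -1.01. None of the 7 interferon genes listed was among the rows. Every row held a positive value in each line, so absence from the rows does not show that a gene was silent in all lines.

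**Figure D2:**
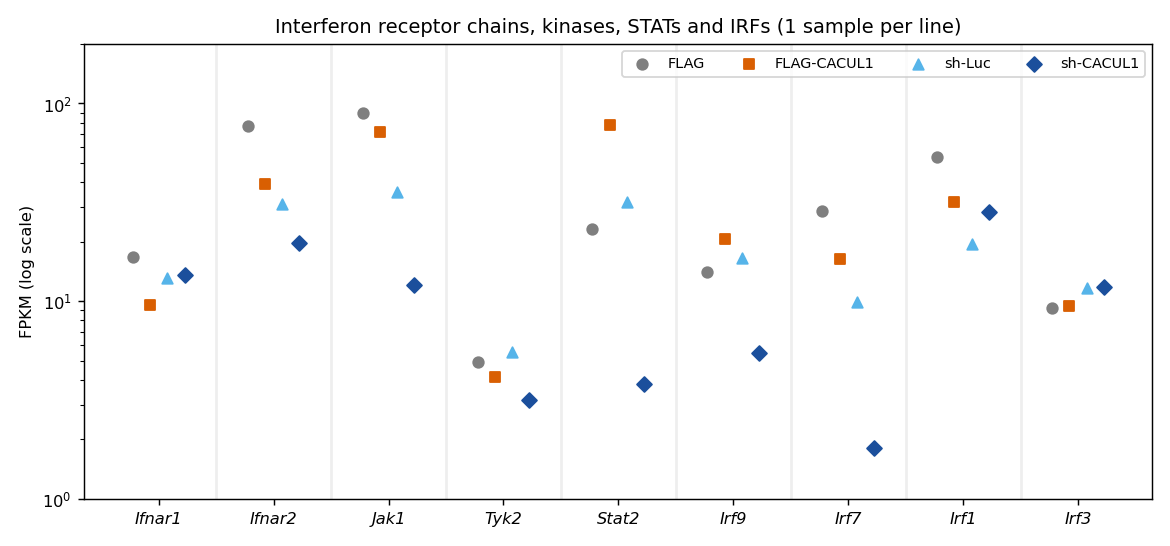
FPKM on a log axis for receptor chains, kinases, Stat2 and IRFs in the 4 lines, 1 point per line. In sh-CACUL1 Stat2 (3.83 FPKM), Irf7 (1.81 FPKM) and Irf9 (5.48 FPKM) lie below the other lines, whereas Irf3 (11.8 FPKM) lies near sh-Luc.

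The IFIT genes, whose products bind viral RNA that lacks the host cap marks, were all silenced, and Ifit1 had the lowest change of all members in sh-CACUL1, -4.17. Ifit1 had 17.5 FPKM in sh-Luc against 0.0258 in sh-CACUL1 and 29.6 in FLAG against 72.5 in FLAG-CACUL1. At the estimated depths this is about 1 fragment in sh-CACUL1 and 1115 in sh-Luc, a ratio of 696 after scaling for depth (95% interval from counting error only, 125 to 27520). Ifit3 had 23.8 and 0.878 FPKM in the hairpin lines and 70.9 and 139 in the FLAG lines, and Ifit2 had 6.04 and 0.286 FPKM in the hairpin lines and 8.31 and 11.2 in the FLAG lines. All 3 genes lie in 1 cluster on chromosome 19 (GRCm38, from 34550550 to 34650009). Ifit3 shares 61.8% of its stretches of 31 bases with Ifit3b, which had 0.703 FPKM in sh-CACUL1 and 14.3 in sh-Luc, so the division of reads between the pair is uncertain.

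The OAS enzymes, which answer double-stranded RNA by making 2-5A to switch on RNase L, were silenced as well. Oas1a had 2.60 FPKM in sh-Luc against 0.0370 in sh-CACUL1 and 11.5 in FLAG against 16.3 in FLAG-CACUL1. Its level in sh-CACUL1 stands for about 1 fragment, against 118 in sh-Luc. Oas2 had 3.55 and 0.138 FPKM in the hairpin lines and 5.76 and 24.4 in the FLAG lines, and Oasl2 had 9.84 and 0.172 FPKM in the hairpin lines and 25.8 and 50.3 in the FLAG lines. In each of them both FLAG lines were above sh-Luc, and Oas2 had the largest change of all members in FLAG-CACUL1 against FLAG, 1.91. Oas1a shares 68.0% of its stretches of 31 bases with Oas1g, which was not among the rows, so its reads may include that copy.

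Other genes that act on RNA were lowered and not silenced. Eif2ak2, the PKR kinase that halts translation, had 23.9 FPKM in sh-Luc against 8.36 in sh-CACUL1 and 16.7 in FLAG against 37.7 in FLAG-CACUL1. Adar, which edits adenosine in double-stranded RNA and limits its sensing, had 14.1 and 3.16 FPKM in the hairpin lines and 7.86 and 19.2 in the FLAG lines. Both were more than 2-fold higher in FLAG-CACUL1 than in FLAG, by 1.13 and 1.19, and more than 2-fold lower in sh-CACUL1 than in sh-Luc, by -1.41 and -1.86. Adar overlaps exons of Chrnb2 on the opposite strand over 1365 bases, and whether strand was used in counting is not given in the sources used here. Isg20, an RNA exonuclease, followed another course, with 5.39 and 2.36 FPKM in the hairpin lines but 54.1 in FLAG and 6.68 in FLAG-CACUL1. It was high in FLAG alone, and its change of -2.84 in FLAG-CACUL1 was the lowest of all members in that comparison.

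Among the cytosolic RNA sensors, Ddx58 (RIG-I) had 15.5 FPKM in sh-Luc against 2.75 in sh-CACUL1 and 14 in FLAG against 17.9 in FLAG-CACUL1. Dhx58 (LGP2), which regulates RIG-I and MDA5, had 12.8 and 1.39 FPKM in the hairpin lines and 12.7 and 13.3 in the FLAG lines. For both genes sh-Luc and the FLAG lines were close to each other and sh-CACUL1 was the single low line, with changes of -2.14 and -2.53. Ifih1 (MDA5) had 0.884 and 0.269 FPKM in the hairpin lines and 1.74 and 2.32 in the FLAG lines and Ddx60, a helper of these sensors, had 1.20 and 0.109 FPKM in the hairpin lines and 1.80 and 2.18 in the FLAG lines. Both count as kept, because the added 1 hides changes at such levels. With no pseudocount Ifih1, Ddx60 and Herc6 passed the 2-fold limit, and the silenced members numbered 19. The share of all genes that were silenced then rose as well, from 2.54% to 8.43%.

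Isg15, a ubiquitin-like protein that is attached to other proteins after interferon, had 34.4 FPKM in sh-Luc against 1.62 in sh-CACUL1 and 79.8 in FLAG against 189 in FLAG-CACUL1. Its change of -3.76 in sh-CACUL1 was the largest among lowered members, and it was 1.24 higher in FLAG-CACUL1 than in FLAG. The enzymes of the same system did not share this range. Usp18, which removes ISG15 and restrains the receptor, had 16.4 and 11.9 FPKM in the hairpin lines and 18.5 and 29.6 in the FLAG lines. Uba7, the activating enzyme, had 2.99 and 3.83 FPKM in the hairpin lines and 12.9 and 6.51 in the FLAG lines, and Trim25, a ubiquitin and ISG15 ligase that also acts on RIG-I, had 17.9 and 12.1 FPKM in the hairpin lines and 30.1 and 28.7 in the FLAG lines. Herc6, the main ISG15 ligase of the mouse, had 1.90 and 0.561 FPKM in the hairpin lines and 6.84 and 6.30 in the FLAG lines. In this system 1 of 5 genes, Isg15, was at least 2-fold lower in sh-CACUL1 than in sh-Luc, and 3 of 5, Isg15, Uba7 and Herc6, were at least 2-fold higher in FLAG than in sh-Luc, where the shares of all genes were 16.4% and 8.58%.

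Membrane proteins gave the highest FPKM, a level per transcript length, of all members. Bst2 (tetherin), which holds budding viruses at the cell surface, had 173 FPKM in sh-Luc against 21 in sh-CACUL1 and 437 in FLAG against 711 in FLAG-CACUL1. In plain FPKM it was 8.23 times lower in sh-CACUL1 than in sh-Luc. Ifitm3, which blocks the entry of viruses from endosomes, had 373 and 121 FPKM in the hairpin lines and 656 and 1322 in the FLAG lines. Ifitm2, its neighbour on chromosome 7, had 550 and 356 FPKM in the hairpin lines and 692 and 1112 in the FLAG lines and counts as kept. The pair thus had the same order of the lines, with a change of -1.61 for Ifitm3 and -0.63 for Ifitm2 in sh-CACUL1. They share 6.24% of the stretches of 31 bases of Ifitm2, which also shares stretches with other transcripts that are not among the rows, so its level is less certain.

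Rsad2 (viperin) and Cmpk2, which lie side by side on chromosome 12 and make an antiviral nucleotide and its precursor, were both silenced. Rsad2 had 1.26 FPKM in sh-Luc against 0.0176 in sh-CACUL1 and 5.6 in FLAG against 3.98 in FLAG-CACUL1. Cmpk2 had 2.65 and 0.0422 FPKM in the hairpin lines and 0.877 and 3.75 in the FLAG lines, so FLAG was the second lowest line for it and the neighbours did not have the same order. These values stand for about 1 and 2 fragments in sh-CACUL1. Mx2, a dynamin-like GTPase, had 6.79 and 0.368 FPKM in the hairpin lines and 13.1 and 11.4 in the FLAG lines. Samhd1, which breaks down deoxynucleotides, was nearly level, between 11.6 FPKM in FLAG and 14.4 in FLAG-CACUL1.

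The interferon-induced GTPases that act on vacuoles of intracellular pathogens also divided. Igtp had 9.51 FPKM in sh-Luc against 0.498 in sh-CACUL1 and 21.3 in FLAG against 27.1 in FLAG-CACUL1, and it shares 15.9% of its stretches of 31 bases with Irgm2. Irgm1 had 14.5 and 5.23 FPKM in the hairpin lines and 11.4 and 40.6 in the FLAG lines. Gbp3 had 6.40 and 0.575 FPKM in the hairpin lines and 8.07 and 11.6 in the FLAG lines. Gbp2, next to Gbp3 on chromosome 3, had 4.25 and 4.54 FPKM in the hairpin lines and 18.1 and 8.28 in the FLAG lines, with nearly the same level in both hairpin lines (a change of 0.08) and its highest level in FLAG. Gbp3 was therefore silenced and Gbp2 kept, although 47450 bases separate them.

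Parp14, an ADP-ribosyltransferase, had 5.32 FPKM in sh-Luc against 0.593 in sh-CACUL1 and 6.77 in FLAG against 9.93 in FLAG-CACUL1 and was silenced. Parp9 and Dtx3l, whose proteins work as a complex and whose genes overlap on opposite strands beside Parp14 on chromosome 16, were kept, with changes of -0.67 and -0.71. Parp9 had 12.2 and 7.33 FPKM in the hairpin lines and 16.3 and 27.0 in the FLAG lines and Dtx3l had 5.42 and 2.93 FPKM in the hairpin lines and 9.43 and 11.2 in the FLAG lines. Trim30a had 11.1 and 1.89 FPKM in the hairpin lines and 15.6 and 29.7 in the FLAG lines and was lowered. Trim21, the cytosolic antibody receptor, had 2.51 and 1.63 FPKM in the hairpin lines and 4.27 and 7.85 in the FLAG lines and was kept. All 5 genes of this group were highest in FLAG-CACUL1 and lowest in sh-CACUL1.

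Of the remaining members Cxcl10, a chemokine that draws T cells, had 1.76 FPKM in sh-Luc against 0.0683 in sh-CACUL1 and 13.3 in FLAG against 8.15 in FLAG-CACUL1. Ifi44 had 2.84 and 0.0232 FPKM in the hairpin lines and 26 and 19.7 in the FLAG lines. In both genes the FLAG lines were far above sh-Luc, and both stood at about 1 fragment in sh-CACUL1. Xaf1, which promotes apoptosis, had 6.29 and 0.621 FPKM in the hairpin lines and 11.2 and 14.2 in the FLAG lines, and Sp100, a component of nuclear bodies, had 3.76 and 0.416 FPKM in the hairpin lines and 5.36 and 14.9 in the FLAG lines. Tor3a was lowered, with 23.5 and 6.61 FPKM in the hairpin lines and 49.9 and 54.0 in the FLAG lines. The secreted glycoprotein gene Lgals3bp had 121 and 75.0 FPKM in the hairpin lines and 307 and 357 in the FLAG lines. Ifi35 and Nmi, which encode partners that bind each other, were kept, Ifi35 at 28.4 and 20.1 FPKM in the hairpin lines and 18.4 and 30.5 in the FLAG lines, and Nmi at 6.37 and 5.32 and at 2.92 and 5.87 FPKM.

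**Figure D3:**
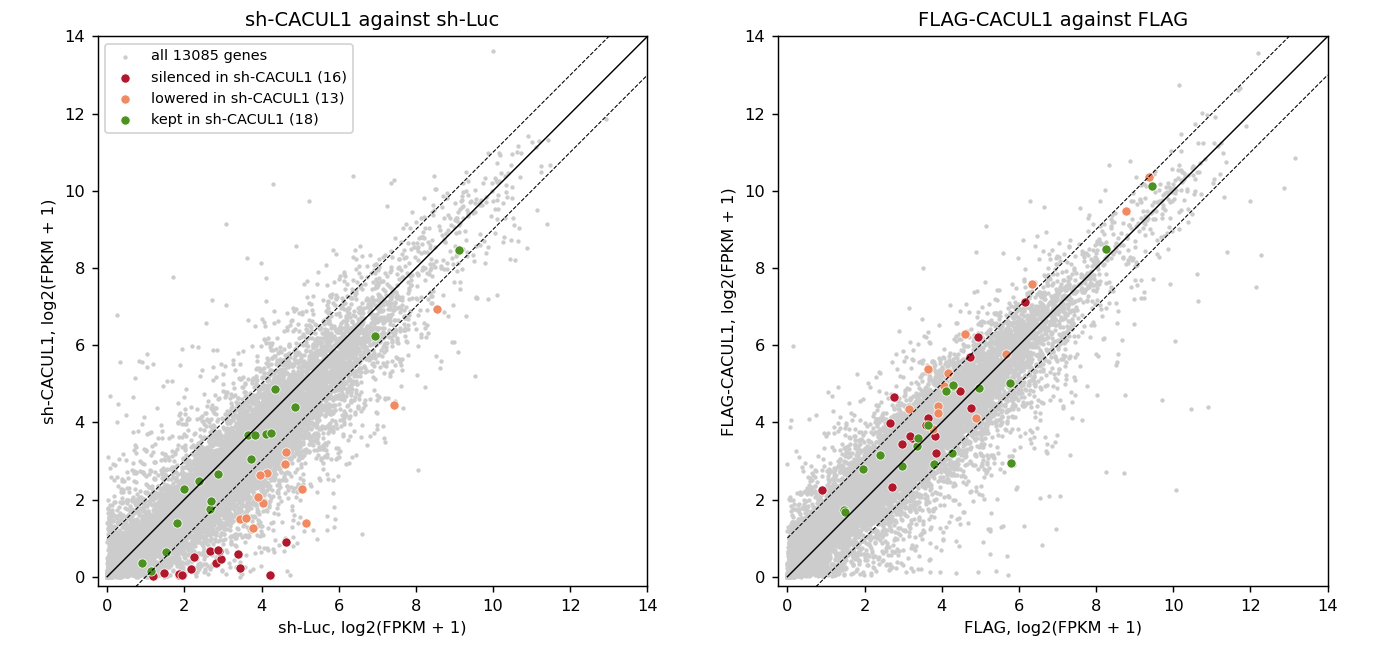
log2(FPKM + 1) of sh-CACUL1 against sh-Luc (left) and of FLAG-CACUL1 against FLAG (right) for all 13085 genes in grey and the 47 interferon-stimulated genes in colour, with the line of equal level and dashed lines at 2-fold. On the left 29 members lie below the lower dashed line, and on the right 10 lie above the upper one and 2 below the lower one.

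FLAG-CACUL1 against FLAG shares no sample with the comparison that set the classes. In it 10 of 47 members (21.3%) were at least 2-fold higher and 2 (4.26%) were lower, against 7.51% and 7.22% of all genes. The members that were higher were Stat2, Isg15, Ifit1, Oas2, Eif2ak2, Adar, Cmpk2, Ifitm3, Irgm1 and Sp100, and the lower ones were Isg20 and Gbp2. Median-of-ratios scaling gave 8 higher and 3 lower. The median change of the members was 0.47, against 0.09 over all genes. By class it was 0.47 for silenced members, of which 4 of 16 were higher, 0.89 for lowered members, of which 6 of 13 were higher, and 0.22 for kept members, of which 0 of 18 were higher and 2 were lower. All 10 members that were higher here belonged to the 29 that were lower in sh-CACUL1. Among all genes, 395 of the 983 that were higher in FLAG-CACUL1 were lower in sh-CACUL1 (40.2%). Seen from the other side, 10 of 29 lowered or silenced members (34.5%) and 395 of 2141 of all genes that were lower in sh-CACUL1 (18.4%) were higher in FLAG-CACUL1. The changes of silenced members in FLAG-CACUL1 ranged from -0.65 for Cxcl10 to 1.91 for Oas2, so not every silenced member was higher in FLAG-CACUL1.

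The control lines, which carry no CACUL1 construct and differ in vector and selection drug, were also compared. FLAG was at least 2-fold higher than sh-Luc for 17 of 47 members (36.2%) and lower for none, against 8.58% and 12.4% of all genes. Isg20 differed by 3.11, Ifi44 by 2.81 and Cxcl10 by 2.38. The median difference was 0.59, and by class it was 0.80 for silenced, 0.00 for lowered and 0.56 for kept members. The median over all genes was -0.18, so the members lay 0.77 above it, while in FLAG-CACUL1 against FLAG they lay 0.38 above the median of all genes. After median-of-ratios scaling these distances were 0.81 and 0.33, with 20 members higher between the controls. The comparisons with the other control share samples with those above, and their values are given side by side. Against FLAG, 37 members were lower in sh-CACUL1 and none higher, where 15.4% of all genes were lower and 7.45% higher. Against sh-Luc, 23 members were higher in FLAG-CACUL1 and none lower, where 5.04% of all genes were higher and 4.87% lower. Lower in sh-CACUL1 than in both controls were 26 members (55.3%) and 6.74% of all genes.

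**Figure D4:**
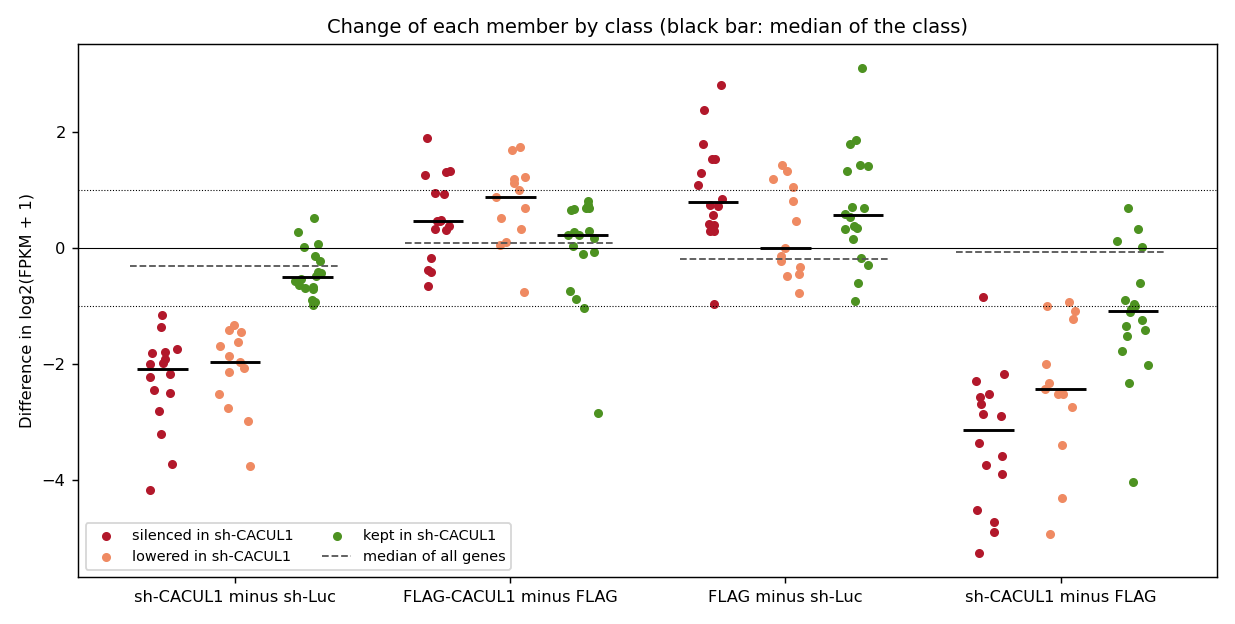
Difference in log2(FPKM + 1) of each member in 4 pairs of lines, coloured by class, with a black bar at the median of the class, a dashed line at the median of all genes and dotted lines at 2-fold. The classes were set on the left pair, where their medians follow from the rule. In FLAG-CACUL1 minus FLAG the medians are 0.47, 0.89 and 0.22 for silenced, lowered and kept members.

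Interferon-stimulated genes outside the list were taken from a second list, made by function but with earlier results of these data known. Of its 72 genes 61 were measured, and 26 of them were at least 2-fold lower in sh-CACUL1 than in sh-Luc and 1 was higher, where the shares of all genes were 16.4% and 4.94%. In FLAG-CACUL1 9 were higher (14.8%) and 2 lower (3.28%), against 7.51% and 7.22% of all genes. Their median change was -0.58 in sh-CACUL1 and 0.40 in FLAG-CACUL1, against -0.30 and 0.09 over all genes. Past 2-fold in both comparisons were Ccl2, Ube2l6, Plscr1, Apol9b, Plscr2 and Ccl5. Ccl2, a monocyte chemokine that also answers NF-κB, had 51.1 FPKM in sh-Luc against 2.00 in sh-CACUL1 and 87.3 in FLAG against 451 in FLAG-CACUL1. Ube2l6, the conjugating enzyme for ISG15, had 23.3 and 6.53 FPKM in the hairpin lines and 26 and 84.2 in the FLAG lines, so it moved with Isg15 and not with Uba7. Ccl5, a chemokine for T cells, was lower in both, by -1.08 in sh-CACUL1 and -1.89 in FLAG-CACUL1. The single gene that was higher in sh-CACUL1 was Ifi27l2a, with 10.5 and 56.5 FPKM in the hairpin lines and 146 and 182 in the FLAG lines, and here sh-Luc and not sh-CACUL1 was the lowest line.

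Most sensors, adaptors and negative regulators of the pathway stayed under 2-fold. Of 16 measured sensors and adaptors 3 were lower and 1 higher at 2-fold in sh-CACUL1 against sh-Luc, and in FLAG-CACUL1 3 were higher and 1 lower. The shares of all genes lower and higher in sh-CACUL1 were 16.4% and 4.94%, and those higher and lower in FLAG-CACUL1 7.51% and 7.22%. Zbp1, a nucleic acid sensor that is itself induced by interferon, had 1.52 FPKM in sh-Luc against 0.0700 in sh-CACUL1 and 17.7 in FLAG against 23.0 in FLAG-CACUL1. Mavs, the adaptor of the RNA sensors, was level, with 14.1 and 15.5 FPKM in the hairpin lines and 15.7 and 14 in the FLAG lines. Of 18 negative regulators 4 were lower in sh-CACUL1 (22.2%, against 16.4% of all genes) and none higher, and in FLAG-CACUL1 2 were higher and 3 lower. Socs1, which inhibits the JAK kinases and is induced by interferon, had 11.5 and 2.30 FPKM in the hairpin lines and 4.83 and 12.9 in the FLAG lines, with changes of -1.93 in sh-CACUL1 and 1.26 in FLAG-CACUL1. Pias3, an inhibitor of STAT3, was the other regulator past 2-fold in both comparisons, with -1.45 and 1.13. The regulators lower in FLAG-CACUL1 were Cish, Ptpn6 and Tnfaip3, with -1.46, -1.40 and -1.09.

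The labels call the cells preadipocytes, and markers of fat cells were measured in all 4 lines at unlike levels. The 8 adipocyte markers, among them Adipoq, Fabp4 and Plin1, summed to 1724 and 18371 FPKM in the hairpin lines and 10306 and 900 in the FLAG lines. Each of them passed 2-fold upward with the CACUL1 hairpin and downward with the CACUL1 vector, the reverse of the direction of most members. The median of the markers was 953 FPKM in FLAG and 1110 in sh-CACUL1. Between these lines 5 of the 8 markers stayed under 2-fold, whereas in sh-CACUL1 Cidec was higher by 3.42 and Fabp4 by 1.33, and Scd1 changed by -1.16. In the same comparison 37 members were lower in sh-CACUL1, with a median change of -2.29. The 8 markers of preadipocytes or fibroblasts summed to 7224 and 1593 FPKM in the hairpin lines and 7598 and 9801 in the FLAG lines. Of these 8, 6 were at least 2-fold lower in sh-CACUL1 than in sh-Luc, while Thy1 was higher by 4.41 and Dlk1 by 4.19. The sum rests mostly on Col1a1, Col3a1, Vim and S100a4, and the median of the list was 590 and 95.3 FPKM in the hairpin lines and 285 and 769 in the FLAG lines. The summed members reached 1685 and 744 FPKM in the hairpin lines and 2899 and 4686 in the FLAG lines. The summed markers gave the 4 lines the same order from high to low, but the median of the markers put sh-Luc above FLAG. Of 8 macrophage markers 4 were among the rows, and they summed to 9.13 and 6.41 FPKM in the hairpin lines and 40 and 110 in the FLAG lines. The markers did not move together, since Lyz2 was higher in FLAG-CACUL1 than in FLAG by 2.89 and Cd14 by 1.43 while Cd68 changed by -2.82, and in sh-CACUL1 against sh-Luc Lyz2 changed by -1.15, Cd14 by 0.16 and Cd68 by 0.15. Csf1r, which defines macrophages, was under 1 FPKM in every line, and Ptprc, Adgre1, Itgam and Cx3cr1 were not among the rows. None of the 9 markers of dendritic cells, T cells or B cells was among the rows. Of 4 endothelial markers Pecam1 alone was, at 0.301 FPKM or less. Absence from the rows does not show that a marker was silent in all lines. The part of the cell state and of these markers in the values of the members was not tested.

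**Figure D5:**
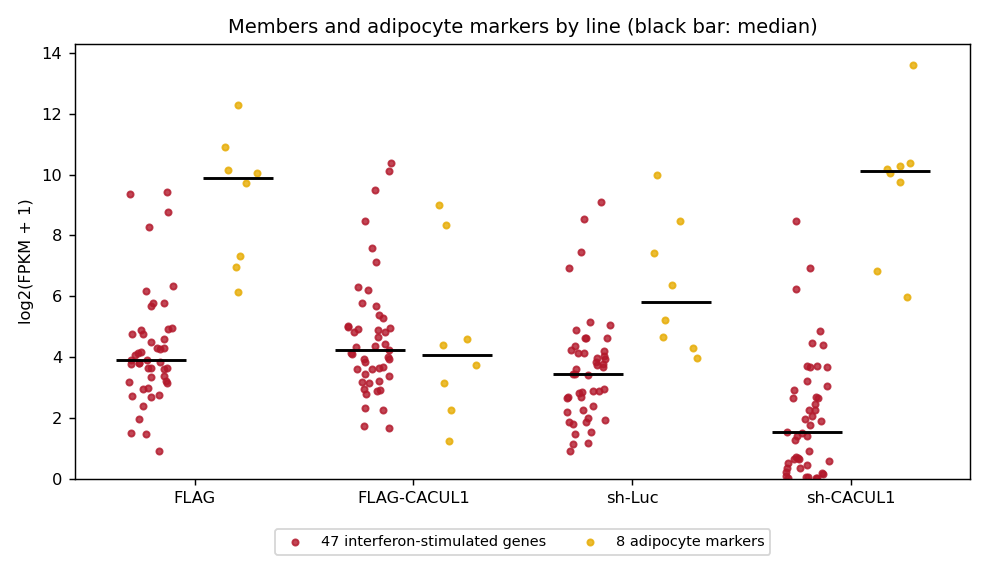
log2(FPKM + 1) of the 47 interferon-stimulated genes and of 8 adipocyte markers in each line, with a black bar at the median. The medians of FLAG and sh-CACUL1 are 953 and 1110 FPKM for the adipocyte markers, of which 3 differ at least 2-fold between these lines, and 14 and 1.89 FPKM for the members.

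The ranges of the 3 classes in sh-Luc overlapped, but silenced members mostly started lower than lowered members. Apart from Ifit1 (17.5 FPKM) and Ifit3 (23.8 FPKM), every silenced member was below the lowest lowered member, Irf7 (9.91 FPKM). The limit of 1 FPKM therefore does not rank members by the size of their fall. Isg15, which was lowered, was 21.2 times lower in sh-CACUL1 than in sh-Luc in plain FPKM, more than the silenced Parp14 below. Silenced members had 1.26 to 23.8 FPKM in sh-Luc, with a median of 5.68, lowered members 9.91 to 373 FPKM, with a median of 16.6, and kept members 0.884 to 550 FPKM, with a median of 8.99. In estimated fragments the silenced genes had between 46.1 and 1115 in sh-Luc and between 0.999 and 66.0 in sh-CACUL1, where 6 of 16 had at most 3. For Parp14, the silenced gene with the most fragments left, the ratio of sh-Luc to sh-CACUL1 was 8.97 (95% interval, 6.98 to 11.7), and for Rsad2 it was 71.2 (12.5 to 2835). These intervals cover counting error only and say nothing of the spread between cultures. Of 9 pairs of members that follow each other along a chromosome with at most 500 kb between them, 6 held 2 genes of the same class. They include the pairs of the Ifit cluster and the overlapping genes Dtx3l and Parp9. How often members that lie apart share a class was not computed, and an effect of position was not tested.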

How the data were processed

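Total RNA of the 4 lines on differentiation day 8 was extracted with Trizol, and a company prepared and sequenced the mRNA libraries. The authors deposited FPKM values for 13110 rows of RefSeq transcripts per sample. The submitters' processing notes name the build mm10. The aligner, the FPKM program, any scaling between samples, the use of strand and any filter are not given in the sources used here. Every row held a positive value in each line, so a gene without signal in a single line may have been left out. Rows were joined to symbols through GENCODE M21 (12914 rows) or RefSeq on GRCm38.p6 (149 rows), and rows of a symbol were summed, which left 13085 genes. Each member had 1 row.

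Changes were computed on log2(FPKM + 1), each condition against the control with its own vector, with a cut-off of 2-fold. With 1 sample per group no test was possible. The value of 1 fragment was estimated from the spacing of low FPKM times transcript length. These depths are estimates. Intervals of fragment ratios are exact binomial and cover counting error only. Members and lists were chosen with earlier results of these data known. Every member could be named. Values in all 4 samples were given for the silenced and lowered members and the 3 of each role with the highest mean FPKM, and genes of other lists were named by receptor role or when past 2-fold in both comparisons. The remaining kept members and Zbp1, Mavs, Ifi27l2a, Jak1, Jak2, Tyk2, Ifit3b, Cish, Ptpn6 and Tnfaip3 were named after their values were seen. The code for calls and spacing was run on simulated data as a check of the code only. Its outcome is not given here, and no accuracy of the calls, least of all those of silenced genes, is drawn from it. Simulated data cannot show the spread between cultures. Other settings were 9 for the changes and 2 limits for silenced genes, and median-centred ratios were added after seeing the data. 1 gene of the pathway lists is not reported here. Python 3.11.15 with numpy 2.4.6 and pandas 2.3.3 was used, and figures were drawn with matplotlib 3.10.9.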

Additional observations from a re-analysis of the deposited data

How the results depend on the processing

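No paired analysis was possible because each group had 1 sample. Of the 29 members lower in sh-CACUL1, 23 stayed past the limit in the same direction under every alternative that could be computed for them. No member was 2-fold higher in sh-CACUL1 under any alternative. A filter of at least 1 FPKM in all 4 samples removes the silenced genes by its construction and left 28 members. Of these, 13 were lower in sh-CACUL1 (median change -0.82), 6 were higher in FLAG-CACUL1 and 9 were higher in FLAG than in sh-Luc. Of all genes that passed the filter, 18.5% were lower in sh-CACUL1, 7.98% higher in FLAG-CACUL1 and 8.10% higher in FLAG than in sh-Luc. The median change in sh-CACUL1 was -2.39 with a pseudocount of 0.1 and -2.45 with none. Under either, 2 members were lower in FLAG than in sh-Luc, where 19.6% and 22.5% of all genes were. At a cut-off of 3-fold 3 members were higher and 1 was lower in FLAG-CACUL1, against 2.16% and 2.90% of all genes. In FLAG against sh-Luc 6 members were higher, against 4.10% of all genes. With the other control the median change in sh-CACUL1 was -2.29, and in FLAG-CACUL1 23 members were higher and 0 lower. Isg20 (0.27) and Gbp2 (0.82) were then higher in FLAG-CACUL1, so their direction turned. Members under 2-fold against their own control also turned with the other one, in sh-CACUL1 Uba7 (-1.52), Gbp2 (-1.78) and Irf1 (-0.90), and in FLAG-CACUL1 Herc6 (1.33), Rsad2 (1.14), Cxcl10 (1.73) and Ifi44 (2.43) among others. Silenced members numbered from 12, at a limit of 0.5 FPKM, to 20, at 2 FPKM, where 1.52% and 4.52% of all genes were silenced. Quantile and median-of-ratios scaling each left 15 of the 16, with 1.73% and 1.62% of all genes. Over single members and settings, 26 calls were lost without a turn of direction and 2, those of Isg20 and Gbp2, were lost with one. Another 31 were gained in the same direction, 6 were gained in the opposite direction and 837 stayed on their side of the limit. The cause of these shifts was not tested except for the filter. The highest row in place of the sum could change no member, because each member had 1 row. Filters at 1 FPKM in any or in all samples could only drop members. These settings count toward the 837 and among the alternatives behind the 23, but they could not have changed a call. With 1 sample per line no difference can be set against the spread between cultures, and 6 of the 16 silenced genes rest on at most 3 estimated fragments in sh-CACUL1.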
